A study of Mus musculus with 12 samples.

Results

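The genes of noradrenaline synthesis and sympathetic identity were examined in cultured mouse trigeminal ganglion (TG) neurons. They comprised 10 genes chosen by name, namely Th, Dbh, Ddc, Slc18a1, Slc18a2, Slc6a2, Gch1, Phox2a, Hand2 and Gata2, out of 19505 gene symbols with a probe on the array. Each of the 10 genes had 1 probe. TG neurons carry touch, pain and temperature from the head, and here they were grown as primary cultures on laminin-coated coverslips and transfected with a miRNA. The 12 arrays fell into 4 groups of 3, which had received miR-21, miR-34a, miR-324 or, as the control, scramble miRNAs. The labels give no strain, age, dose or time, and do not name the arm of miR-324. The sample titles name no arm for miR-21 or miR-34a either. The study concerns nerves in head and neck cancer, and its comparisons ask which transcripts differ after each miRNA from those after scramble. Whether the 3 arrays of a group were separate cultures or animals is not stated in the labels. The spread behind the p-values could therefore be technical in part, and it also holds the differences in cell type markers within groups given below.

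Noradrenaline is made from tyrosine in steps. Tyrosine hydroxylase (Th) makes L-DOPA with the cofactor tetrahydrobiopterin, whose synthesis starts with Gch1, then Ddc makes dopamine, and Dbh turns dopamine into noradrenaline inside vesicles. Slc18a1 and Slc18a2 load monoamines into vesicles, and Slc6a2 takes noradrenaline back up at the cell surface. Phox2a, Hand2 and Gata2 are transcription factors of sympathetic neuron development. Sensory ganglia are not noradrenergic, although a class of mouse sensory neurons of the dorsal root ganglia, the C low-threshold mechanoreceptors, contains Th.

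Mature sequences of these miRNAs are given from RefSeq (GRCm38.p6) to show that the seeds of the printed arms, bases 2 to 8 in capitals, all differ. Both arms are shown for miR-324 and the 5p arm alone for miR-21 and miR-34a, whose arm the titles do not give. The lines run 5′ to 3′.
mmu-miR-21a-5p: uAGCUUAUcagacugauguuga
mmu-miR-34a-5p: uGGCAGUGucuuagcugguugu
mmu-miR-324-5p: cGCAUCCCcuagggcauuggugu
mmu-miR-324-3p: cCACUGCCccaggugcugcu
No search for seed matches in transcripts was made.

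The 250 bases before the start of Th and of Dbh, the first enzyme of the pathway and the enzyme that makes noradrenaline itself, are shown because these genes define a noradrenergic cell. In both lines capitals mark ATTA on either strand, a core recognised by homeodomain factors such as Phox2a, and in Th also TGACGTCA, the cAMP response element. The lines are RefSeq sequence of GRCm38.p6, chr7:142899996-142900245 on the minus strand for Th and chr2:27165257-27165506 on the plus strand for Dbh.
Th: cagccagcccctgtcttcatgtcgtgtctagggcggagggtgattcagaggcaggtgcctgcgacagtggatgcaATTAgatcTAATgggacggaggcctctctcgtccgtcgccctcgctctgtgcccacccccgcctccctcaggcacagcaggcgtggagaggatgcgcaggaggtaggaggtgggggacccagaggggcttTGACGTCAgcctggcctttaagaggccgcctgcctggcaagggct
Dbh: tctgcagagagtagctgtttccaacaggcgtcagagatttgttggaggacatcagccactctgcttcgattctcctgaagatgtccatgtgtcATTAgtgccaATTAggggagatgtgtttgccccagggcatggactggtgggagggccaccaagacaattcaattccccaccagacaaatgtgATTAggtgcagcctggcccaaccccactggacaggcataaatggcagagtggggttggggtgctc
Th held ATTA 2 times and TGACGTCA 1 time, 45 bases before the start, and Dbh held ATTA 3 times. Among 32851 such windows of mouse genes, 54.9% held ATTA and 1.55% held TGACGTCA. Of the 10 genes 8 had such a window in RefSeq. ATTA was also present in those of Hand2 (5 matches), Ddc (3 and 2 in its pair of windows) and Slc18a2 (1), and in none of Gch1, Gata2 and Phox2a. GATAA, a core of GATA factor sites searched on both strands and held by 22.6% of windows, was found in Hand2 (2 matches), Phox2a (1) and Slc18a2 (1, overlapping its ATTA match). A match is a description of these letters and not a binding site.

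Values are log2 signals, on which 1 unit is a doubling. They cannot be compared between probes as amounts of RNA. To judge which signals lay within the floor of the array, each was set against the 95th percentile of 1414 probes for olfactory and vomeronasal receptors on the same array. This floor guide lay between 4.87 and 5.80.

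Some labels carry a suffix, shared by miR-34a 1 and 2 with scramble 1 and 2 (suffix A) and by miR-324 2 with scramble 3 (suffix B). Cell type markers set arrays of the same group apart. The endothelial cadherin Cdh5 stood at 15.57 to 16.80 in miR-34a 3, the miR-324 arrays (1, 2 and 4) and scramble 3, and at 12.25 to 13.12 in the other 7 arrays. Prl, pituitary prolactin, stood at 14.26 to 15.17 in the miR-324 arrays and scramble 3 and at 4.83 or lower in the other 8. The pan-neuronal list had its lowest medians, 10.15 and 10.71, in miR-34a 3 and miR-324 1, against 11.62 to 13.57 elsewhere. Of the 14 measured TG sensory neuron genes 8 were above the floor guide on all arrays, and the pan-neuronal list had 14 of 15, so RNA of sensory neurons was measured on every array.

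Most of the 10 transcripts lay within the floor of the arrays, among them Dbh, the enzyme that makes noradrenaline, but Th did not. Dbh, Ddc, Slc18a1, Slc6a2, Phox2a and Hand2 were at or below the floor guide on all 12 arrays, in the miRNA groups and in scramble alike. Th was above it on 8 arrays, among them all those of miR-21 and scramble, and Slc18a2 on 5. Gch1 and Gata2, which also serve cells other than sympathetic neurons, were above it on all 12. In the plot of the 10 genes by array, 6 panels stay under the guide and Gch1 and Gata2 stay far above it.

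**Figure D1:**
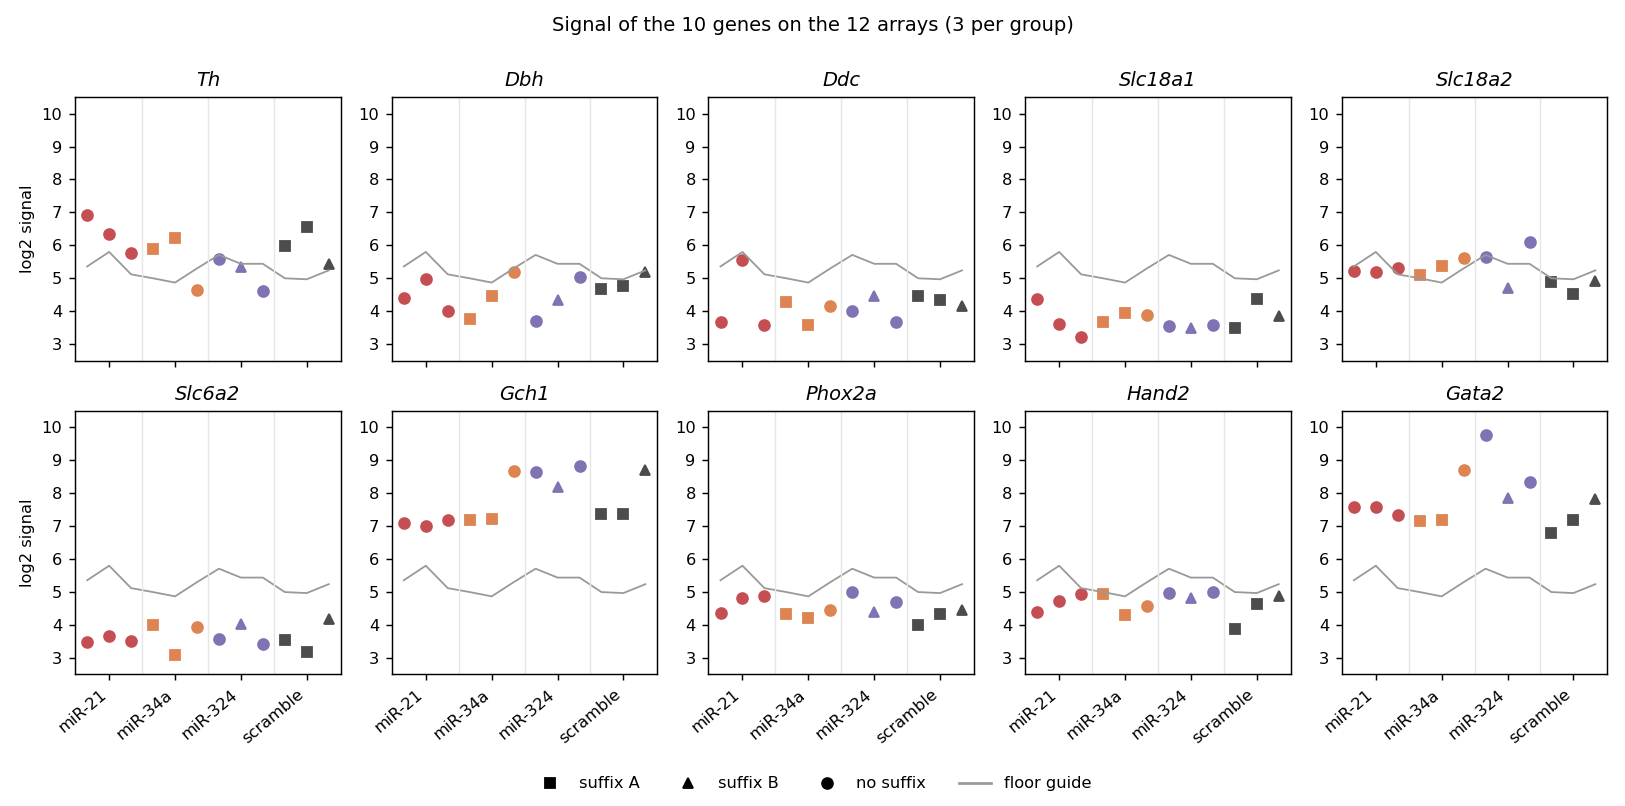
Log2 signal (y axis) of each of the 10 genes on the 12 arrays (x axis, 3 arrays per group; marker shape gives the label suffix), with the floor guide of each array as a grey line. Gch1 and Gata2 lie above the guide on all 12 arrays, Th on 8, Slc18a2 on 5, and the other 6 genes on none.

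None of the 10 genes passed an adjusted p of 0.05 after miR-21, miR-34a or miR-324 against scramble, in limma with Benjamini-Hochberg adjustment over 19572 named probes. Over all named probes 1.10% passed after miR-21, and 0% after miR-34a and after miR-324. At an unadjusted p of 0.05, 0 of the 10 passed after miR-21 (all probes 16.6%), 0 after miR-34a (1.46%) and 2 after miR-324, Gata2 and Slc18a2 (14.7%). The median difference of the 10 genes was 0.08 after miR-21, −0.02 after miR-34a and 0.23 after miR-324, where all named probes had medians of 0.13, 0.04 and 0.09. The 3 comparisons share the scramble arrays. With 3 arrays a group the unadjusted 95% intervals reached 0.52 to 1.09 to either side of a difference, so a difference of about 1 unit could be missed. The adjustment over 19572 probes asks for more, so larger differences could be missed too. Gata2, at 1.39 after miR-324, had an adjusted p of 0.31.

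The groups of 3 did not overlap for Gch1 and Slc18a2 after miR-21 (all named probes 25.6%), for Slc18a2 after miR-34a (5.80%) and for Gata2 after miR-324 (19.9%). Slc18a2 and Gata2 were the higher ones in the miRNA group, and Gch1 the lower.

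The 10 genes also gave 0 calls between the miRNAs. Over all named probes 2.45% passed for miR-324 against miR-21, 0.199% for miR-34a against miR-21 and 0% for miR-324 against miR-34a. At an unadjusted p of 0.05, Th, Gch1 and Gata2 passed for miR-324 against miR-21 (all probes 14.7%), 0 genes for miR-34a against miR-21 (11.3%) and 0 for miR-324 against miR-34a (13.0%). The arrays did not overlap for the same 3 genes in the first of these (21.4%), for 0 genes in the second (17.0%) and for Slc18a1, within the floor, in the third (17.1%).

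**Figure D2:**
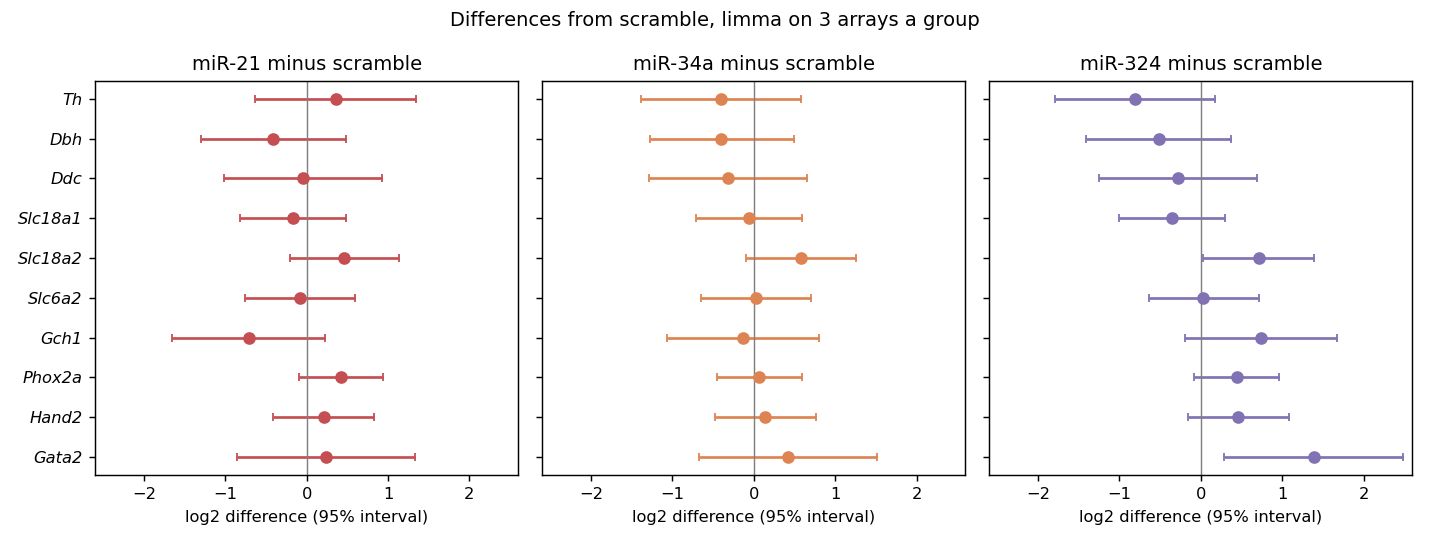
Difference in log2 signal from scramble (x axis, with its 95% interval from limma) of the 10 genes (y axis) after miR-21, miR-34a and miR-324, 3 arrays a group. Only the intervals of Gata2 and Slc18a2 after miR-324 leave out 0, and neither gene passed after adjustment.

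Th, the rate-limiting enzyme, had signals of 6.93, 6.34 and 5.78 in miR-21 1, 2 and 3, of 5.90, 6.23 and 4.64 in miR-34a 1, 2 and 3, and of 5.60, 5.35 and 4.61 in miR-324 1, 2 and 4, against 5.98, 6.56 and 5.44 in scramble 1, 2 and 3. All miR-21 and scramble arrays were above the floor guide, as were 2 of the miR-34a arrays and 0 of the miR-324 arrays, and the values of each miRNA group overlapped those of scramble. Some margins were small: signal minus guide was −0.11, −0.09 and −0.83 in miR-324 1, 2 and 4, and 0.20 in scramble 3. The difference was 0.36 ± 0.45 (SE) after miR-21 (adjusted p = 0.72; 95% interval −0.63 to 1.34), −0.40 ± 0.45 after miR-34a (adjusted p = 1) and −0.81 ± 0.45 after miR-324 (adjusted p = 0.40; −1.79 to 0.18). From high to low the group means ran miR-21 (6.35 ± 0.58, SD, n = 3), scramble (5.99 ± 0.56), miR-34a (5.59 ± 0.84) and miR-324 (5.19 ± 0.51), and no neighbours in that order differed beyond their spread. The ends of the order did not overlap: Th was lower in miR-324 than in miR-21 by −1.16 ± 0.45 (adjusted p = 0.24).

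Gch1, the entry enzyme of cofactor synthesis, had signals of 7.11, 7.02 and 7.20 in miR-21, of 7.18, 7.22 and 8.67 in miR-34a 1, 2 and 3, and of 8.65, 8.19 and 8.84 in miR-324 1, 2 and 4, against 7.38, 7.38 and 8.71 in scramble 1, 2 and 3. It was high in all miR-324 arrays and also in miR-34a 3 and scramble 3, and low in the other 7. The difference from scramble was −0.71 ± 0.43 after miR-21 (adjusted p = 0.42), −0.13 ± 0.43 after miR-34a (adjusted p = 1) and 0.74 ± 0.43 after miR-324 (adjusted p = 0.42). With the suffix as a fixed block the difference after miR-21 was −1.92 ± 0.30 (adjusted p = 0.003), in a fit where 679 named probes passed. But no miR-21 array has a suffix and every scramble array has one, so that value rests on the arrays of the other groups. Set against miR-21, Gch1 was higher in miR-324 by 1.45 ± 0.43, a 2.73-fold difference that did not pass (adjusted p = 0.12).

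Ddc, which makes dopamine and also serotonin, ranged from 3.57 to 5.55 and Dbh from 3.69 to 5.19. The highest Ddc value, in miR-21 2, lay 0.25 under that array's floor guide. Dbh averaged 4.46 ± 0.48 in miR-21, 4.48 ± 0.71 in the miR-34a group and 4.35 ± 0.68 in the miR-324 group, against 4.87 ± 0.27 in scramble (SD, n = 3 each). Their differences from scramble were −0.41 ± 0.41 after miR-21, −0.40 ± 0.41 after miR-34a and −0.52 ± 0.41 after miR-324 (adjusted p = 0.64, 1 and 0.54). With all 12 values within the floor no direction is drawn from them. Ddc averaged 4.27 ± 1.11, 4.00 ± 0.38 and 4.04 ± 0.40 after miR-21, miR-34a and miR-324, against 4.32 ± 0.16 after scramble, and the wide spread after miR-21 comes from the single value of 5.55.

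Slc18a2, the vesicular transporter of monoamine neurons, had signals of 5.22, 5.20 and 5.30 in miR-21, of 5.10, 5.37 and 5.61 in miR-34a 1, 2 and 3, and of 5.64, 4.72 and 6.10 in miR-324 1, 2 and 4, against 4.89, 4.51 and 4.93 in scramble 1, 2 and 3. The scramble arrays were all lower than every miR-21 and miR-34a array, and overlapped the miR-324 group only through miR-324 2. All 3 miR-34a arrays, 1 of miR-21 and 1 of miR-324 were above the floor guide, and no scramble array was. The signals lay close to the guide on both sides, by 0.10, 0.50 and 0.31 in miR-34a 1, 2 and 3 and by −0.11, −0.46 and −0.31 in scramble 1, 2 and 3. The difference was 0.46 ± 0.31 after miR-21 (adjusted p = 0.47), 0.58 ± 0.31 after miR-34a (adjusted p = 1; 0.54 within suffix A, 2 arrays against 2) and 0.71 ± 0.31 after miR-324 (adjusted p = 0.33; −0.21 within suffix B, 1 array against 1). Mast cells also carry this transporter. The 9 measured mast cell genes had medians of 4.50 to 5.34 with 2 of 9 above the floor guide on all arrays, and their part in the Slc18a2 signal was not tested.

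Slc18a1, the form of the transporter typical of endocrine cells such as adrenal chromaffin cells, ranged from 3.22 to 4.36. Slc6a2, the noradrenaline reuptake transporter, ranged from 3.08 to 4.19. Slc18a1 averaged 3.73 ± 0.58 after miR-21, 3.83 ± 0.15 after miR-34a and 3.55 ± 0.05 after miR-324, against 3.90 ± 0.44 after scramble. Slc6a2 averaged 3.56 ± 0.10, 3.67 ± 0.51 and 3.67 ± 0.31 after the same miRNAs, against 3.64 ± 0.51 after scramble. Neither reached the floor guide on any array, and their largest difference from scramble was that of Slc18a1 after miR-324 (−0.35 ± 0.30, adjusted p = 0.58).

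Phox2a, a homeodomain factor required for noradrenergic differentiation, ranged from 4.00 to 5.01, and Hand2, a basic helix-loop-helix factor that maintains Th and Dbh expression in sympathetic neurons, from 3.87 to 4.99. Phox2a averaged 4.68 ± 0.29 in miR-21, 4.33 ± 0.13 in the miR-34a group and 4.70 ± 0.32 in the miR-324 group, against 4.26 ± 0.23 in scramble (SD, n = 3 each). Hand2 averaged 4.68 ± 0.28 after miR-21, 4.61 ± 0.33 after miR-34a and 4.93 ± 0.10 after miR-324, against 4.47 ± 0.53 after scramble. The largest differences were those after miR-324, 0.44 ± 0.24 for Phox2a and 0.46 ± 0.29 for Hand2 (adjusted p = 0.39 and 0.44). All 12 values of each gene were within the floor, and no direction is given.

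Gata2, a zinc finger factor of sympathetic neurons that is also expressed in endothelial, blood and pituitary cells, had signals of 7.58, 7.58 and 7.35 in miR-21, of 7.17, 7.19 and 8.70 in miR-34a 1, 2 and 3, and of 9.77, 7.85 and 8.34 in miR-324 1, 2 and 4, against 6.78, 7.18 and 7.84 in scramble 1, 2 and 3. The miR-324 arrays were all above scramble, the lowest of them by 0.01, and miR-34a 3 stood above the other miR-34a arrays. The difference after miR-324 was 1.39 ± 0.50, a 2.61-fold difference (95% interval 0.29 to 2.48; unadjusted p = 0.017, adjusted p = 0.31). It was 0.24 ± 0.50 after miR-21 (adjusted p = 0.84) and 0.42 ± 0.50 after miR-34a (adjusted p = 1). Set against miR-21, Gata2 was higher in miR-324 by 1.15 ± 0.50 (adjusted p = 0.31), again without overlap of the arrays.

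Gch1, Gata2 and Th, 3 of the 10 genes, separated the same arrays as Cdh5 did, as did 6.31% of all 19572 named probes. This split of the arrays was made after the Cdh5 values were seen. In the 5 arrays with the higher Cdh5 signal Gch1 stood at 8.19 to 8.84, Gata2 at 7.84 to 9.77 and Th at 4.61 to 5.60. In the 7 with the lower Cdh5 signal Gch1 stood at 7.02 to 7.38, Gata2 at 6.78 to 7.58 and Th at 5.78 to 6.93, so Th ran opposite to Gch1 and Gata2. The remaining 7 genes overlapped between these arrays. Gch1 supplies tetrahydrobiopterin to the nitric oxide synthase of endothelial cells as well as to Th. The 11 measured endothelial genes, 9 of them above the floor guide on all arrays, had medians of 12.15 to 13.82 in the miR-324 arrays, 12.85 in miR-34a 3 and 11.92 in scramble 3, against 8.42 to 9.62 in the other 7. After miR-324 the endothelial list had a median difference of 2.59, with all 11 means above those of scramble. At an unadjusted p of 0.05 in limma all 11 genes passed (all named probes 14.7%). At the adjusted threshold 0 passed, where 0% of all named probes did. In RNA from whole cultures, fewer cells of a type and less RNA per cell cannot be told apart. The part of endothelial cells in the Gch1 and Gata2 signals was not tested.

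**Figure D3:**
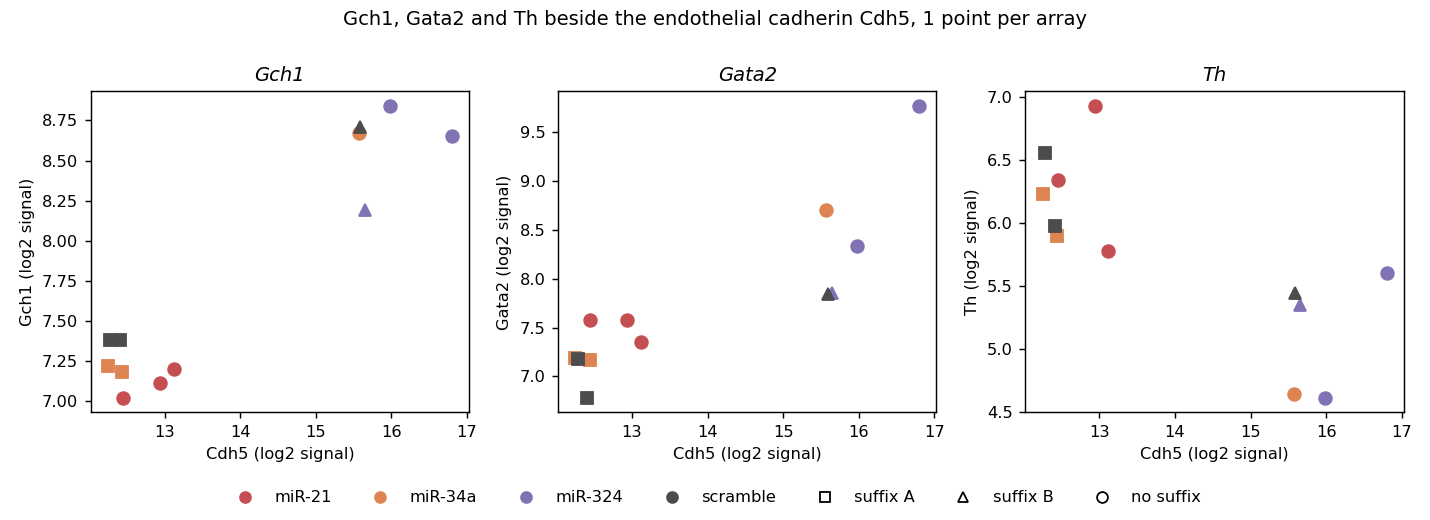
Log2 signal of Gch1, Gata2 and Th (y axes) against that of the endothelial cadherin Cdh5 (x axis), 1 point per array, with colour for the group and shape for the label suffix. The 5 arrays at Cdh5 15.57 to 16.80 have the higher Gch1 and Gata2 and the lower Th signals, and the 2 suffix B arrays lie among them although one is miR-324 and the other scramble.

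Some other marker lists separated the same arrays, and others did not. The TG sensory neuron list had medians of 6.56 to 7.84 in the 5 arrays with higher Cdh5 and 8.52 to 9.80 in the other 7, the dividing cell list 5.35 to 6.76 and 8.30 to 8.92, and the macrophage list 4.09 to 4.61 and 5.07 to 7.82. The satellite glia list had medians of 7.96 to 8.91 and 10.15 to 11.50 in the same sets, and the fibroblast list 8.06 to 9.40 and 10.39 to 11.85. The pan-neuronal list overlapped (10.15 to 12.95 and 11.62 to 13.57), as did the lists of Schwann cells, pericytes and smooth muscle, mast cells and pituitary. The list of C low-threshold mechanoreceptor genes also overlapped (7.68 to 9.66 and 8.90 to 9.59). Of its 8 genes 2 did not overlap (all named probes 6.31%), both lower in the 5 arrays. The secreted factor Tafa4 stood at 5.52 to 6.29 in them and at 6.88 to 8.58 in the other 7, and the receptor Gfra2 at 9.77 to 11.15 and at 13.31 or more. The other 6 overlapped, among them the mechanically gated channel Piezo2 (6.93 to 12.12 and 9.42 to 11.63), Zfp521 (9.33 to 10.70 and 8.83 to 9.50) and Slc17a8, the vesicular glutamate transporter of these neurons, which was within the floor at 3.66 to 4.61. The part of sensory neurons, satellite glia, fibroblasts, macrophages or dividing cells in the Th signal was not tested.

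Within suffix B, miR-324 2 and scramble 3 differed by 0.01 for Gata2, −0.52 for Gch1 and −0.09 for Th, 1 array against 1 and without a test. With the suffix as a fixed block the miR-324 differences were 0.25 ± 0.41 for Gata2, −0.34 ± 0.26 for Gch1 and 0.07 ± 0.43 for Th (adjusted p = 0.99, 0.98 and 1). Between the miR-324 and scramble groups only miR-324 2 and scramble 3 share a suffix, so these values also rest on the miR-34a arrays. The level without a suffix held arrays of both the higher and the lower Cdh5 signal. With the median of the endothelial list as a covariate, an alternative chosen after seeing the data, the miR-324 differences were 0.24 ± 0.38, −0.28 ± 0.31 and −0.12 ± 0.49 (adjusted p = 1 for each). Leaving out miR-34a 3, miR-324 1 and scramble 3, also chosen after seeing the data, gave 3 calls after miR-324: Th at −1.29 ± 0.38, Gch1 at 1.13 ± 0.26 and Gata2 at 1.11 ± 0.26 (adjusted p = 0.045, 0.014 and 0.016). That fit sets miR-324 against scramble 1 and 2 alone, which have the lower Cdh5 signal and suffix A.

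Within suffix A the miR-34a and scramble arrays differed by 0.20 or less for Gch1, Gata2 and Th, and by 0.54 for Slc18a2. Gch1 averaged 7.20 in miR-34a 1 and 2, against 7.38 in scramble 1 and 2, Gata2 7.18 against 6.98 and Th 6.07 against 6.27. These differences were −0.18, 0.20 and −0.20. Without miR-34a 3 the differences of the miR-34a group from scramble were 0.07 ± 0.41 for Th, −0.09 ± 0.47 for Gata2 and −0.62 ± 0.37 for Gch1 (adjusted p = 1 for each). That of Gch1 was thus farther from 0 than with all arrays (−0.13), with scramble 3, which has the high Gch1 signal, still in the fit.

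**Figure D4:**
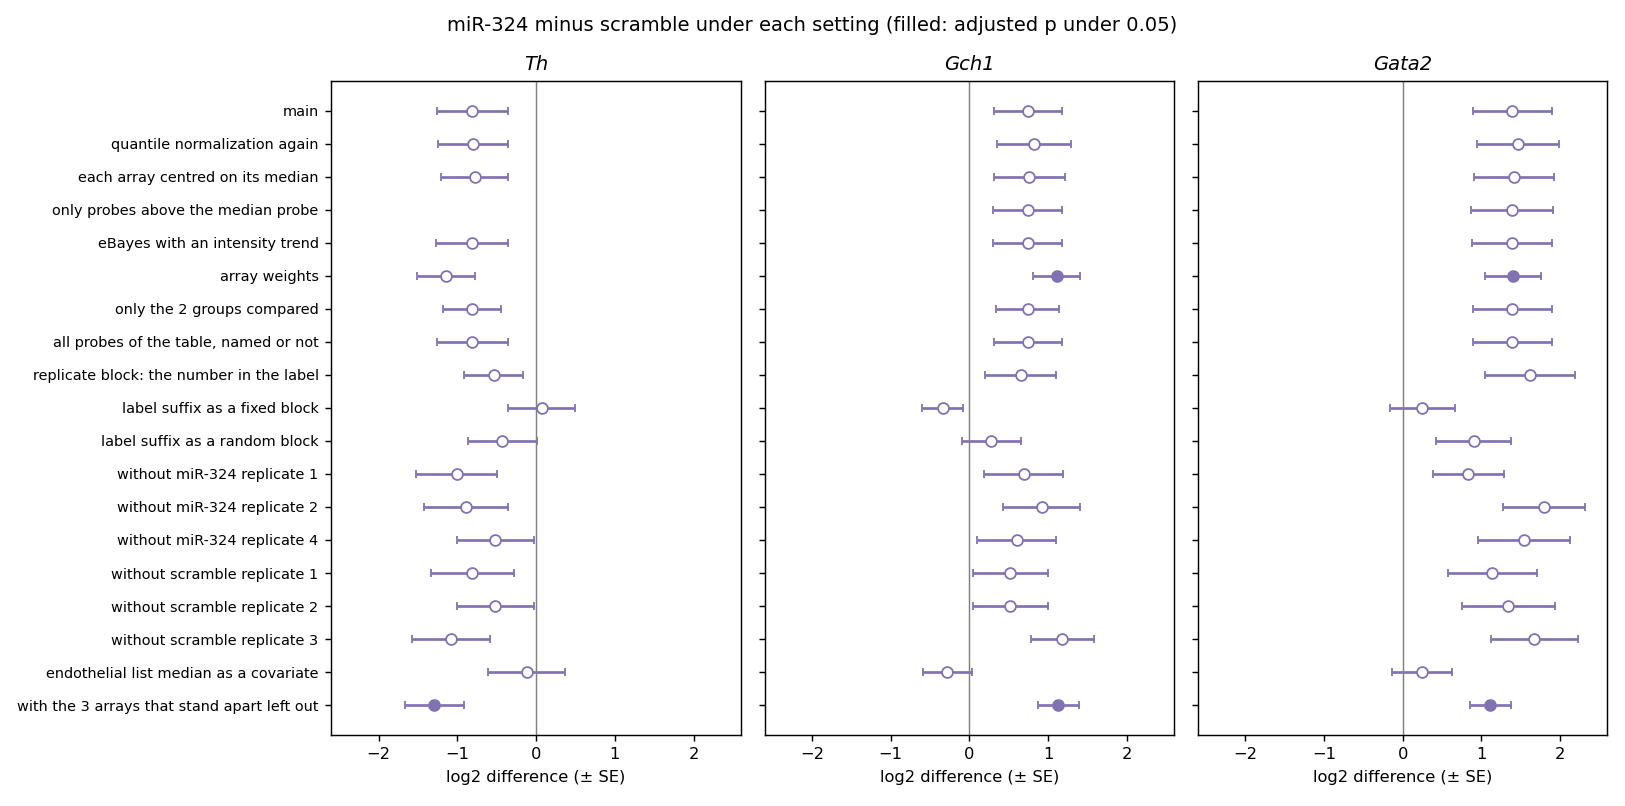
Log2 difference of Th, Gch1 and Gata2 between miR-324 and scramble (x axes, ± SE of the fit) under each setting (y axis), filled where the adjusted p was under 0.05. The 3 differences are near 0, or for Gch1 slightly below it, with the suffix as a fixed block or the endothelial covariate, and are past the threshold with array weights (Gch1 and Gata2) or without the 3 arrays that stand apart. Between the 2 groups only miR-324 2 and scramble 3 share a suffix, so the suffix block also rests on the miR-34a arrays.

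Other genes of the pathway were described from 6 further lists, and 0 of their genes passed after any miRNA against scramble. They covered further synthesis, cofactor and turnover genes (11 measured), sympathetic and autonomic transcription factors (9), granule and co-transmitter genes (10), adrenergic receptors (2), cholinergic and autonomic receptors (8) and serotonin genes (5). At an unadjusted p of 0.05, 5 of the 10 granule and co-transmitter genes passed after miR-21 (all named probes 16.6%), 0 after miR-34a (1.46%) and 0 after miR-324 (14.7%). In the same order the counts were 2, 1 and 2 of 9 transcription factors, 2, 1 and 2 of 8 cholinergic and autonomic receptor genes, 2, 0 and 0 of 5 serotonin genes, 1, 0 and 1 of 11 synthesis and turnover genes, and 0 of 2 adrenergic receptors throughout. The median difference of the granule list was −0.59 after miR-21, −0.53 after miR-34a and −0.42 after miR-324. The pan-neuronal list, with 0 of 15 genes past the adjusted threshold in each comparison, had medians of −1.26, −0.91 and −1.64, and its part in the granule values was not tested.

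The cofactor pathway was measurable beyond Gch1. Pts and Spr, the next enzymes of tetrahydrobiopterin synthesis, stood at 7.01 to 7.81 and 6.45 to 6.91, and Qdpr, which regenerates the cofactor, at 8.42 to 9.69, all above the floor guide on 12 arrays. Gchfr, the feedback regulator of Gch1, was within the floor at 3.74 to 4.44. Of the turnover genes Maoa, which degrades monoamines, was above the guide on all arrays (8.45 to 10.44), and Pnmt, which makes adrenaline, on none (2.83 to 3.53). Npy, the peptide that sympathetic neurons release with noradrenaline, ranged from 4.65 to 5.88 and was above the guide on 7 arrays. These single genes were chosen after their values were seen.

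The probes most like Th over the 12 arrays were Tro, H2ac1, H3c7, Gen1 and Cenpn, with Pearson correlations of 0.939, 0.911, 0.893, 0.890 and 0.889 among 14971 symbols with a range of at least 1. Those most like Dbh were Pdilt (0.851), Mettl21c (0.822), Aoc2 (0.788), Actrt2 (0.783) and Ap4e1 (0.777), lower values for a gene within the floor. The same measure, applied to Gch1 and Gata2 after their values were seen, gave Nfkbia, Mecom, Nab1, Erg and Arhgap29 for Gch1 (0.982 to 0.965) and Gvin1, Mall, Ces2g, Ppm1f and Snap23 for Gata2 (0.978 to 0.962). Erg, a transcription factor of endothelial cells and a member of the endothelial list, stood at 12.72 to 13.82 in the 5 arrays with the higher Cdh5 signal and at 8.42 to 9.98 in the other 7. These correlations describe 12 points that share arrays and fall into the sets of 5 and 7 by Cdh5, and no p is given.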

How the data were processed

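RNA of cultured TG neurons was labelled with biotin and measured on 12 Clariom S Mouse arrays. The authors deposited log2 signals for 22206 probes, made with Transcriptome Analysis Console 4.0 and RMA, per the submitters' processing notes. RMA sets all arrays to a common distribution, which removes any change in total signal, and values near the floor understate differences. Array medians lay between 5.91 and 6.06, and no array repeated another. Arrays have no read depth, so their number limits the precision.

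By the platform annotation 19572 probes had 1 symbol, 0 had several and 2634 had no symbol used here. RefSeq (GRCm38.p6) held all 19572 gene IDs. For each gene the probe with the highest mean was taken.

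Group means were fitted to all 22206 probes of 12 arrays by lmFit and eBayes of limma 3.58.1 (R 4.3.3), tested two-sided and adjusted over the 19572 named probes at 0.05. The fit was run on simulated data with independent noise for each probe and array. Such data lack shifts shared by many probes of an array, like the marker differences above. Figures and summaries used Python 3.11.15. In each comparison with scramble all 10 genes were named, and between miRNAs those that passed or did not overlap. Genes of pathway lists were named where they passed, others only as markers or as stated, and for Th and Dbh the 5 most correlated probes were named. Alternatives changed the normalization, the probe filter, the variance prior, array weights, the arrays in the fit, the threshold and the blocks. The third scramble array carries the number 1 in its label and is called scramble 3. The members, lists and tests were chosen with earlier results of these data known.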

Additional observations from a re-analysis of the deposited data

How the results depend on the processing

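No member passed in any of the 6 comparisons among the 4 groups, and the count stayed at 0 in 102 of 115 alternative fits. After miR-21 against scramble the count was 1 (Gch1, −1.92) with the suffix as a fixed block. After miR-324 against scramble it was 2 with array weights (Gch1 1.11, Gata2 1.40), where 2379 named probes passed. At an unadjusted p of 0.05 with at least a 2-fold difference it was 1 (Gata2), beside 1263 of all 22206 probes. It was 3 (Th, Gch1 and Gata2) without miR-34a 3, miR-324 1 and scramble 3, where 2536 named probes passed. That last setting was chosen, like the endothelial covariate, after seeing the data. For miR-34a against miR-21 the members' count was 2 with the fixed suffix block (Th and Gch1), where 986 named probes passed. For miR-324 against miR-21 it was 2 with array weights, 1 with only both groups in the fit and 3 at the unadjusted threshold. It was 3 with the fixed and 1 with the random suffix block, and 2 without the 3 arrays. In the same order 1728, 1035, 1516, 1337, 801 and 2351 probes passed, the 1516 among all 22206 and the others among named probes. For miR-324 against miR-34a the members' count was 2 with array weights and 2 without the 3 arrays, where 2599 and 2177 named probes passed. Leaving out 1 array gave 0 in every comparison.

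Among genes above the floor guide, signs turned without a call. With the fixed suffix block Slc18a2 and Gata2 were −0.28 and −1.24 after miR-21 and Th and Gch1 0.07 and −0.34 after miR-324. With the random block Gata2 was −0.40 after miR-21, and with the endothelial covariate Gch1 was −0.28 after miR-324. Without 1 array each, Gata2 after miR-21 ranged from −0.01 to 0.52, and after miR-34a Th ranged from −0.72 to 0.07, Gch1 from −0.62 to 0.31 and Gata2 from −0.09 to 0.71. The cause was not tested. Arrays whose labels carry no suffix formed a level of their own in the suffix blocks.

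With the number in the label as a replicate block the count was 0 in all 6 comparisons, and 2 of all named probes passed after miR-21 in place of 215. Same-numbered arrays of different groups did not deviate together (correlations −0.41 to 0.36, 3 of 16 pairs over 0.1), so the numbers are not taken as pairs. Each gene had 1 probe, so no alternative probe could be tried, and suffix B (1 array against 1) gave values with no test. Signals within the floor limit what can be said of Dbh, Ddc, Slc18a1, Slc6a2, Phox2a and Hand2.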
